A study of Mus musculus with 2 samples.

Results

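The 9 plate assays described here stand for miRNAs that macrophages are known to make in response to inflammatory stimuli: mmu-miR-155, mmu-miR-146a, mmu-miR-146b, rno-miR-146b, mmu-miR-132, mmu-miR-212-3p, mmu-miR-9, mmu-miR-147 and mmu-miR-187. They are 9 of the 376 miRNA assays on the plate. They were chosen by name from general knowledge of these miRNAs, with earlier results of these data known. All RNA came from the mouse macrophage cell line RAW264.7, grown in DMEM with serum, and the labels name no Toll-like receptor ligand or other stimulus. A probe was transfected for 24 hours, the RNA it captured was pulled out on streptavidin beads, and miRNAs in that RNA were measured by SYBR green real-time PCR. One pull-down was made with a control probe and 1 with a probe for Stat3 mRNA, to find miRNAs that associate with Stat3 mRNA. With 1 pull-down per probe there is no test between probes, and everything given here is a description of 2 plates.

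Toll-like receptors sense microbial products and switch on the transcription factors NF-κB, AP-1 and CREB, which in macrophages act on miRNA genes as well as on cytokine genes. miR-155 strengthens the response by repressing the inhibitors SOCS1 and SHIP1, whereas the miR-146 miRNAs restrain it by repressing the adaptors IRAK1 and TRAF6. Stat3, the mRNA that was probed, carries the signal of the anti-inflammatory cytokine IL-10, which is known to lower miR-155.

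The mature sequences of 6 of the 9 assays are shown from RefSeq (GRCm38.p6), and whether capture depended on the seed was not tested. They run 5′ to 3′, with the seed (bases 2 to 8) in capitals, and older assay names without an arm were taken as the arm named in RefSeq as follows.
miR-155 (miR-155-5p): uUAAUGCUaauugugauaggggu
miR-146a (miR-146a-5p): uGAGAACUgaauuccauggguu
miR-146b (miR-146b-5p): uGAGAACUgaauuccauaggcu
miR-132 (miR-132-3p): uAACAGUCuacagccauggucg
miR-212-3p (miR-212-3p): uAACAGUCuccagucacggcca
miR-9 (miR-9-5p): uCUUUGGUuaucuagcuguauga

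These 6 carry 4 different seeds. miR-146a and miR-146b share one and differ only beyond it, at G18A and U21C, counted from the 5′ end with the miR-146a base first. miR-132 and miR-212-3p share another and are identical at 17 of 22 positions, with the first difference at position 10 (A10C, miR-132 base first). Among 1679 mature mouse miRNA names in the RefSeq table, no other name has the seed of miR-155 or of miR-9, and no name outside these pairs has that of miR-146 or of miR-132.

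The genes lie at separate places, except for one pair. miR-155 is encoded on the plus strand at chr16:84714143-84714165, overlapping the long noncoding RNA gene Mir155hg. miR-146a lies on the minus strand at chr11:43374435-43374456, overlapping no other RefSeq gene, and miR-146b on the plus strand at chr19:46342790-46342811 overlapping the noncoding gene Gm36493. miR-212-3p (chr11:75173443-75173464) and miR-132 (chr11:75173723-75173744) lie on the plus strand with 258 bases between them, outside other RefSeq genes. miR-9 has 3 loci, on chromosomes 3, 7 and 13, each overlapping a long noncoding RNA gene. The annotation used gives gene spans and no exons.

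A threshold cycle (Ct) is the PCR cycle at which a well passes the detection threshold, so within an assay more template gives a lower Ct, and complete amplification makes 1 cycle a factor of 2. An assay is called measured below 35 cycles, and a ratio sets the Stat3 probe over the control probe in the way of the authors' deposited table, which adds 0.7 cycles to control Ct minus Stat3 Ct. Of 384 wells on each plate, 209 gave a Ct in the control pull-down and 225 in the Stat3 pull-down. The median ratio of the 100 miRNA assays measured in both was 4.22-fold. It was 5.01-fold for the 74 in odd plate rows (A, C and on to O), and 1.80-fold for the 26 in even ones (B, D and on to P). The only repeated wells are the 3 of the UniSp3 calibrator, whose control minus Stat3 difference was -0.89 ± 0.97 cycles (SD, n = 3 wells) with a range of 1.93 cycles. It was 0.02 (row C) and -0.76 (row E) in odd rows and -1.91 (row B) in an even one. This SD therefore includes any difference between the row sets. The plates were separate runs, so run and probe cannot be told apart. The pull-downs are bulk RNA, in which fewer cells holding a miRNA and less of it per cell cannot be told apart.

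Most of the inflammation-induced miRNAs were measured in at least 1 pull-down. Of the 9 assays, 5 were measured in both (miR-155, miR-146a, both miR-146b assays and miR-9), where 26.6% of all miRNA assays were. Only the Stat3 probe gave a measured level of miR-132 and miR-212-3p, a pattern seen in 6.65% of all miRNA assays. Only the control probe gave one of miR-187, a pattern of 3.72% of all, and miR-147 was measured in neither. The plot of Ct by pull-down shows these 3 kinds of pattern.

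**Figure D1:**
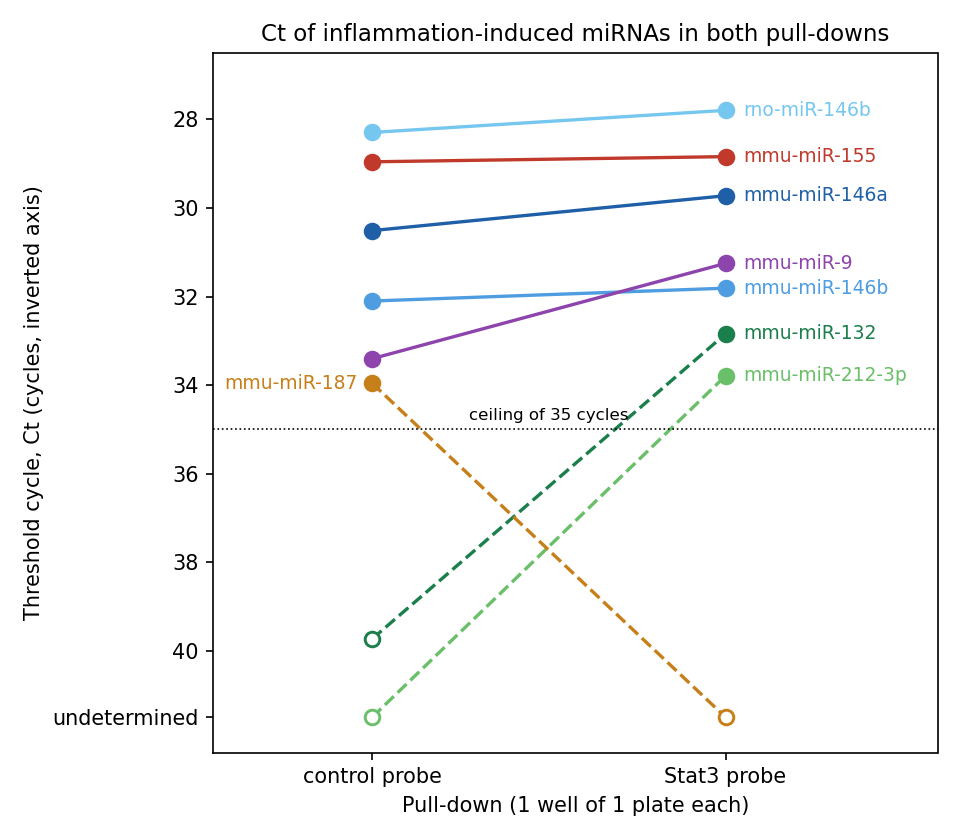
Threshold cycle (inverted axis, so more template lies higher) of the 8 assays tied to a well, with the control probe (left) and the Stat3 probe (right); each point is 1 well, open points are at or above 35 cycles or undetermined, and dashed lines join assays measured with 1 probe only. The lines of miR-155 and the miR-146 assays are nearly level, miR-9 goes from 33.40 to 31.25, and miR-132 and miR-212-3p are below 35 cycles only with the Stat3 probe.

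miR-155 had about the same Ct with either probe. Its Ct was 28.96 in the control pull-down and 28.84 in the Stat3 pull-down, a difference of 0.12 cycles. The deposited ratio of 1.76-fold is therefore almost all offset, and without the offset it was 1.08-fold. The calibrator wells themselves had a mean difference of -0.89 cycles (SD 0.97). Relative to that mean, miR-155 stood at 1.003 on the log2 scale. By Ct, miR-155 ranked 17th of the 113 measured miRNA assays tied to a well with the control probe and 34th of 122 in the other pull-down. In its own set of plate rows its ratio ranked 15th of 26, at 0.976 times their median, and among all 100 assays it ranked 81st, at 0.418 times the median. Where it stands among miRNAs thus depended on which rows it was set against.

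The miR-146 assays, which read feedback inhibitors of the same receptors, had small differences in Ct as well. miR-146a had Ct values of 30.51 (control) and 29.72 (Stat3), a ratio of 2.81-fold, or 1.73-fold without the offset. The mouse-named miR-146b assay had Ct values of 32.10 and 31.81, a ratio of 1.99-fold, or 1.22-fold without the offset. The rat-named miR-146b assay had the lowest Ct of the 9 in either pull-down, 28.29 and 27.80, and a ratio of 2.30-fold, or 1.41-fold without the offset. All 3 assays had the lower Ct with the Stat3 probe, by 0.79, 0.29 and 0.50 cycles. Relative to the calibrator mean of -0.89 cycles they stood at 1.67, 1.18 and 1.39 on the log2 scale. That mean joins odd-row wells at 0.02 and -0.76 with an even-row well at -1.91. miR-146a and the mouse-named miR-146b assay lie in odd rows, and the rat-named assay in an even one. The calibrator wells were also earlier than these assays, so their SD of 0.97 does not measure the spread of wells this late. The 3 log2 ratios of the miR-146 assays spanned 0.50, so these assays of one seed were not separated beyond that SD.

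Levels of the miR-146 assays differed far more between assays than between probes. The mouse-named miR-146b assay lay above the rat-named one by 3.81 cycles (control) and 4.02 cycles (Stat3). miR-146a lay between them, 2.22 and 1.93 cycles above the rat-named assay. Both gaps exceed the calibrator SD of Ct, which was 0.29 for control and 1.16 for Stat3. Assays can differ in efficiency, and miRNAs that differ at so few bases can share signal between assays, so these Ct values do not rank miR-146a and miR-146b by abundance.

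Beyond miR-146b, 2 miRNA numbers on the plate were measured in both pull-downs under a mouse and a rat name. miR-223, a myeloid miRNA, read 1.42-fold with the mouse-named and 1.80-fold with the rat-named assay, and miR-200c, an epithelial miRNA, 0.815-fold and 1.50-fold. Their mouse and rat Ct values lay within 0.73 cycles of each other on either plate. Only the miR-146b pair had a wide gap in level among these 3, a contrast picked out after the values were seen. The plate holds 22 pairs of such names, and some of those left out disagreed on detection. For miR-421 the mouse-named assay read 34.61 (control) and 32.56 (Stat3), and the rat-named one was measured in neither. For miR-214 the rat-named assay read 33.58 and 34.25, and the mouse-named one was measured in neither. A wide gap was therefore not shown to be particular to miR-146b. In all 3 pairs measured under both names the mouse-named assay sits in an odd row and the rat-named one in an even row. In all 3 the rat-named assay had the higher ratio, by 0.21 (miR-146b), 0.34 (miR-223) and 0.88 (miR-200c) on the log2 scale. This is the opposite of the order of the row medians, and each difference is less than the calibrator SD.

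miR-9, which is known to be induced by endotoxin in monocytes and to repress NFKB1, had the largest ratio of the 5 measured in both. Its Ct was 33.40 in the control pull-down and 31.25 in the Stat3 pull-down, a difference of 2.15 cycles, more than the calibrator range of 1.93. The ratio was 7.22-fold, or 4.44-fold without the offset. It ranked 22nd of 100 and 19th of the 74 in its rows, at 1.44 times their median, within 1 calibrator SD of it. The gap between miR-9 and miR-155 was 2.04 on the log2 scale as deposited and 0.56 with each set against its own rows. The assay of the opposite arm, miR-9*, was not measured in either pull-down. miR-9 is also abundant in neurons. Of the other markers on the neural list, 2 are on the plate under the listed name, and these went opposite ways. miR-124 was below 35 cycles only with the control probe (Ct 32.76, and 35.35 with the Stat3 probe), whereas miR-132 was below it only with the Stat3 probe. The listed miR-219 and miR-128a have assays under other names. Of these, miR-219-5p was below 35 cycles only with the control probe (Ct 33.42), and miR-219-3p* and miR-128 were measured with neither. The part of other cells in the miR-9 signal was not tested.

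Of the 5 assays measured in both, miR-9, miR-146a and the rat-named miR-146b assay were at least 2-fold higher with the Stat3 probe, against 73.0% of all miRNA assays. miR-9 alone was at least 4-fold higher, against 53.0%, and none was at least 2-fold lower, against 2.00%. Their median ratio was 2.30-fold, below the 4.22-fold of all 100. Set against the median of all, 4 of the 5 were lower, miR-9 being the exception. Set against the median of their own rows, 3 of the 5 were lower (miR-155, miR-146a and the mouse-named miR-146b assay), and the median difference was -0.034 on the log2 scale. Only the mouse-named miR-146b assay lay further from its rows' median than 1 calibrator SD, by -1.34.

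**Figure D2:**
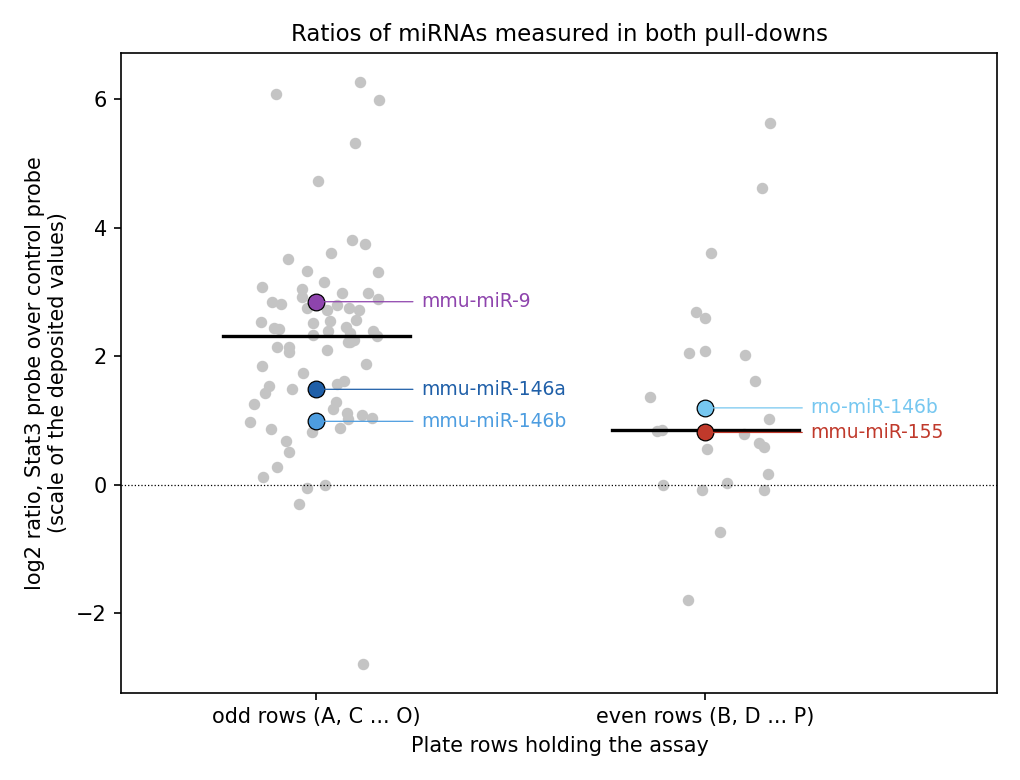
The log2 ratio of Stat3 probe over control probe (vertical axis, scale of the deposited values) for the 100 miRNA assays measured in both pull-downs, split by odd and even plate rows; each point is 1 assay, the bars are medians, and the 5 inflammation-induced assays are coloured. miR-155 lies at the median of its rows (0.82 against 0.85), whereas miR-146a and the mouse-named miR-146b assay lie below the median of theirs (1.49 and 0.99 against 2.33).

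miR-132 and miR-212-3p, which share a primary transcript induced through CREB as well as a seed, showed the same pattern of detection. miR-132 had a Ct of 32.85 in the Stat3 pull-down and 39.73 in the control pull-down. It was at least 7.23-fold higher with the Stat3 probe when the control was set at 35 cycles, or at least 4.45-fold without the offset. The control Ct itself would give 192-fold, but it was the fourth latest of 209 determined wells on that plate and carried an instrument warning. miR-212-3p had a Ct of 33.79 with the Stat3 probe and was undetermined with the control probe, also with a warning, and was at least 3.75-fold higher, or at least 2.31-fold without the offset. With the ceiling at 34 cycles the deposited-scale bounds were 3.62-fold for miR-132 and 1.88-fold for miR-212-3p. The Stat3 wells of both carried no warning. With the Stat3 probe miR-212-3p lay 0.95 cycles above miR-132, less than the calibrator SD on that plate.

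Of the 25 miRNA assays that the Stat3 probe alone gave, 92.0% had a bound of 2-fold or more, and miR-132 and miR-212-3p ranked 6th and 15th of the 25. Of the 23 of them tied to a single well, 3, with miR-212-3p among them, were undetermined with the control probe. A warning stood on 5 of the 23 control wells, those of miR-132 and miR-212-3p included. Relative to the median of all miRNAs the bounds became at least 1.71-fold for miR-132 and at least 0.89-fold for miR-212-3p, so the second gives no direction on that scale. Relative to their own rows they were at least 1.44-fold and at least 2.08-fold. miR-132 lies in an odd row (K) and miR-212-3p in an even one (H).

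miR-187, which IL-10 is known to induce in endotoxin-treated monocytes, was the one assay of the 9 measured only with the control probe. Its Ct was 33.96 in the control pull-down and undetermined in the other, which gives a ratio of at most 0.79, or at most 0.486 without the offset. With the ceiling at 34 cycles the bound was 1.58, which gives no direction. It lay 1.04 cycles under the ceiling, close to the calibrator SD, and 10 of the 14 miRNA assays that the control probe alone gave were likewise undetermined with the other. miR-147, a miRNA induced by Toll-like receptors that dampens cytokine output, is listed at 1.625 in the authors' deposited table, the value of every assay at or above 35 cycles on both plates. Its well is unknown, and 126 of the 238 wells of this kind gave a Ct of 35.06 or later on at least 1 plate, so a low level was not excluded by these plates.

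Ordered by Ct, the 6 assays measured with the control probe ran from rno-miR-146b through miR-155, miR-146a, miR-146b and miR-9 to miR-187, with each step above the calibrator SD of 0.29 on that plate. The calibrator wells there lay at 21.18 to 21.76 cycles, earlier than all 6 assays. Their SD does not measure the spread of wells as late as these. With the Stat3 probe the order of the 7 was rno-miR-146b, miR-155, miR-146a, miR-9, miR-146b, miR-132 and miR-212-3p. There only the step from miR-146a to miR-9, of 1.53 cycles, exceeded the calibrator SD of 1.16. The calibrator wells on that plate, at 21.48 to 23.67 cycles, were likewise earlier than all 7 assays. Neither SD therefore shows which neighbours are separated. The order is one of Ct and not of copies.

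For every assay of the 5 but miR-9, the sign of the ratio depended on what it was set against. On the scale of the deposited values all 5 assays measured in both were above 1. Scaled to U6, a small nuclear RNA, miR-155 stood at -1.30 on the log2 scale, miR-146a at -0.63 and miR-9 at 0.74. RNU1A1 and RNU5G, the other small RNA controls on the plate, went the opposite way to U6. Their control minus Stat3 differences were -1.22 and -1.78 cycles, against 1.42 for U6, and scales on them were not computed. Scaled to the UniSp3 calibrator, all 5 were at least 2-fold higher, with miR-155 at 1.003 and miR-9 at 3.04. miR-9 was above 0 on each of the 8 scales tried, miR-146a only on the deposited scale, without offset and on the calibrator.

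**Figure D3:**
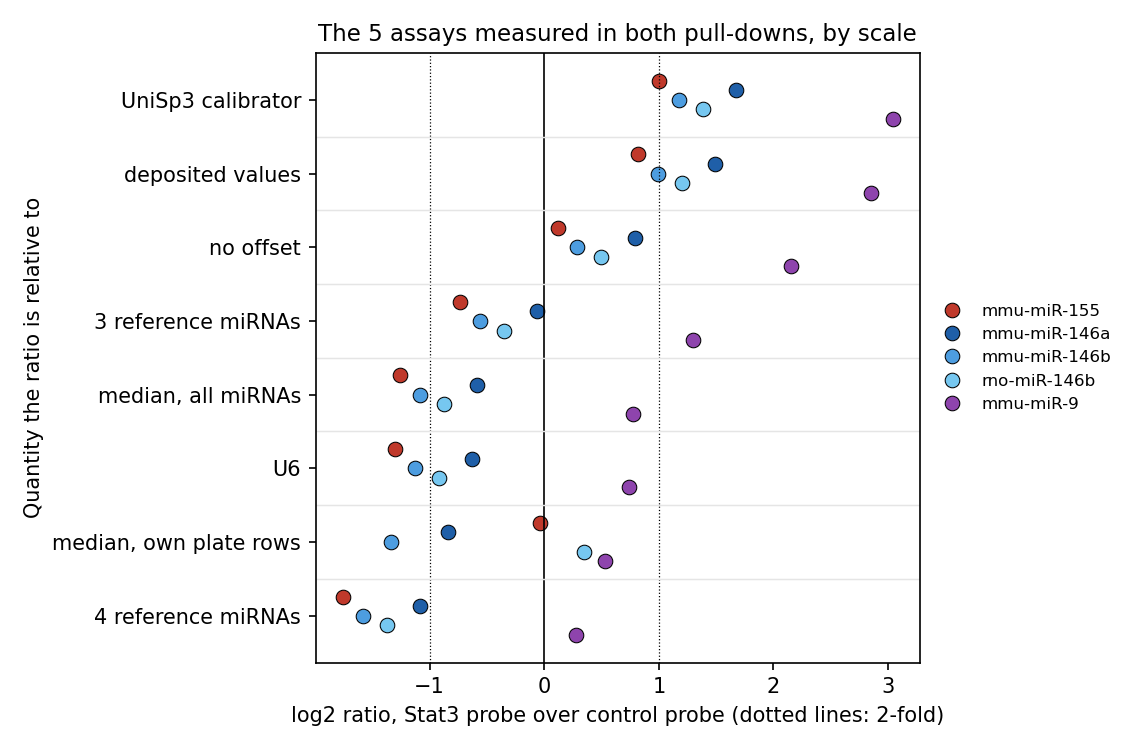
The log2 ratio of Stat3 probe over control probe (horizontal axis) of the 5 assays measured in both pull-downs, on 8 scales (vertical axis); each point is 1 assay and dotted lines mark 2-fold. miR-9 lies right of 0 on each scale, and the other 4 lie left of 0 on the scales of all miRNAs, U6 and either set of reference miRNAs.

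The assays most like each of these in the pair of Ct values, over 2 pull-downs and 98 other assays, were found by distance in cycles. For miR-155 they were miR-30c (0.59 cycles, 2.92-fold) and let-7f (0.72 cycles, 0.964-fold). miR-146a was nearest to miR-151-5p (0.14 cycles) and miR-17 (0.28 cycles), and the mouse-named miR-146b assay to miR-106a (0.12 cycles) and miR-351 (0.15 cycles). The rat-named miR-146b assay was nearest to miR-142-3p (0.38 cycles) and miR-103 (0.46 cycles), and miR-9 to miR-652 (0.16 cycles) and the endothelial miRNA miR-126-3p (0.35 cycles). By Ct with the Stat3 probe alone, miR-132 was nearest to miR-148b and miR-183, and miR-212-3p to miR-181b and miR-30e, among assays of the same kind. miR-187 was nearest to the rat-named miR-200b assay and miR-490-3p with the control probe. All of these distances are below the calibrator SD, and 2 pull-downs give no pattern finer than a pair of levels.

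Other miRNAs that act on or respond to this pathway were taken from a list of 35 names, chosen with earlier results of these data known. Of these names, 34 are on the plate under the listed name. Both pull-downs gave 18 of these, the Stat3 probe alone 5, the control probe alone 2 and neither 9. The remaining name, miR-511, has an assay as miR-511-5p, which neither pull-down gave. Of the 18, 14 were at least 2-fold higher and 4 lay within 2-fold, again against 73.0% higher among all miRNA assays, and the median was 4.03-fold. The highest were miR-99b (40.1-fold) and miR-125a-5p (26.6-fold), products of one cluster of which miR-125a is known to act on the NF-κB regulator A20, and miR-27b (10.1-fold). At the other end were miR-223 (1.42-fold), miR-29b (1.09-fold) and miR-200c (0.815-fold). Only the Stat3 probe gave miR-181a, at least 36.1-fold higher, miR-148b (at least 6.49-fold), miR-152 (at least 5.72-fold), miR-98 (at least 4.27-fold) and miR-181b (at least 3.71-fold). Only the control probe gave miR-200a, a ratio of at most 1.56, and miR-124, at most 0.344. All 18 lie in odd rows, and against the median of those rows their median was -0.31 on the log2 scale.

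The labelled cell type was checked against 6 myeloid marker miRNAs. Of these, 5 were measured in both pull-downs, and miR-142-5p was in neither. miR-21 lay at 27.19 and 26.33 cycles and miR-142-3p at 28.07 and 27.48 cycles, whereas miR-223 came later, at 32.09 and 32.29 cycles. miR-155 and miR-146a are counted among the 5. None of 4 muscle markers was measured. Of markers of other cell types, endothelial miR-126-3p (5.25-fold), erythroid miR-451 (1.002-fold), epithelial miR-200c (0.815-fold) and neural miR-9 were measured in both. Only the control probe gave liver miR-122, erythroid miR-144, epithelial miR-200a, and neural miR-124 and miR-219-5p. Only the Stat3 probe gave miR-132, which is listed as a neural marker too. Epithelial miR-200b and miR-141 and neural miR-128 were in neither.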

How the data were processed

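Both plates of 384 real-time PCR wells were used, one for each pull-down. Per the file headers they are SDS 2.3 exports of raw Ct values with a manual threshold of 0.15. The deposited fold table is headed as a log fold change, but its values are linear ratios: with each Ct capped at 35, raising 2 to 0.7 plus the difference in cycles (control minus Stat3) returned every value tied to a single well within 0.00049. That identity, recovered from the values, ties names to wells. Of 146 rows off the ceiling value, 142 matched 1 well and 4 a pair, and 8 of the 9 assays described here matched 1 well each. For one pair, miR-451 and the UniSp6 spike-in, the lower Ct was taken as the spike-in, which sets the plate row counted for miR-451. Ratios were recomputed from Ct with Python 3.11.15 and numpy 2.4.6, with no pseudocount. No test between probes was possible, and PCR precision comes from the calibrator wells alone.

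The 9 assays and the other lists were chosen with earlier results of these data known. Named assays are the 9, the highest and lowest 3 and the 1-probe members of the second list, the 2 nearest assays in Ct, and the RNAs used for scaling. The comparison of mouse and rat names was added after the values were seen. Alternatives were the offset, the ceiling, the fold threshold and 6 other scales. Seed matches in Stat3 mRNA were not analysed here, since no transcript or probe sequence was used.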

Additional observations from a re-analysis of the deposited data

How the results depend on the processing

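Of 106 recomputed values, 47 stayed within the limits set for them (1 calibrator SD, or 1.5 times for a count), 38 moved further and 21, each from a value of at least 2-fold, turned sign. Counting smaller values too, 32 of the 90 log2 values turned sign: the other 11 are 5 each of miR-155 and the mouse-named miR-146b assay, and miR-187 under a ceiling of 34 cycles (0.66 from -0.34). Of the 5 assays measured in both, 3 were at least 2-fold higher as deposited. This count was 5 on the calibrator scale, 1 without the offset, at a 4-fold threshold or on the references without miR-423-3p, and 0 on all other scales. Their median log2 ratio of 1.20 became -0.88 against all miRNAs, -0.034 against own plate rows, -1.37 on 4 reference miRNAs (miR-16, miR-423-3p, miR-103 and miR-191), -0.35 without miR-423-3p and -0.92 on U6. In that order, miR-146a went from 1.49 to -0.59, -0.84, -1.08, -0.064 and -0.63. The rat-named miR-146b assay went from 1.20 to -0.88 against all miRNAs, -1.37 and -0.35 on the references and -0.92 on U6. The bound of miR-212-3p, 1.91, became -0.17 against all miRNAs, -0.66 on 4 references and -0.21 on U6, but 1.06 against own rows and 0.36 without miR-423-3p. The median of the second list, 2.01, became -0.065 against all miRNAs, -0.31 against own rows, -0.56 on 4 references, 0.46 without miR-423-3p and -0.10 on U6. Each scale subtracts 1 value from all assays, or 1 per set of rows, which by construction sets these signs.

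Detection was less sensitive. Of the 8 assays tied to a well, the 6 measured with the control probe became 7 with any determined Ct, by miR-132. They became 4 under a ceiling of 33 cycles, and the 7 with the Stat3 probe became 6 under it. miR-147, whose well is unknown, cannot be counted under any determined Ct. No paired analysis was possible because each probe has 1 pull-down. Late wells limit what can be said of miR-132, miR-212-3p, miR-187 and miR-147.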
